A study of Homo sapiens with 9 samples.

Results

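Granule proteases, peroxidases, lysozyme and the proteoglycan that packs them were followed in MOLM13 cells against the level of the RNA-binding protein RBM5. The 9 genes (LYZ, MPO, LPO, AZU1, PRTN3, ELANE, CTSG, CTSD and SRGN) were chosen by symbol as granule genes of promyelocytes and monocytes, out of 57820 genes in the count table, and all 9 passed the filter on low counts in each comparison. They and the gene lists further on were chosen with earlier results of these data known. Counts of calls set beside the share over all genes are therefore descriptions. MOLM13 is an established human acute myeloid leukaemia line with a rearranged MLL (KMT2A) gene. RNA-seq libraries came from 3 groups with 3 biological replicates each. RBM5 KO cells received Cas9 and the guide RBM5-sg1 against coding exons of RBM5; RBM5 OE cells received a lentiviral RBM5 cDNA linked to a Venus reporter, in a vector whose promoter is EFS by the study's methods for its rescue constructs; CTRL cells received Cas9 and a non-targeting guide (NT). RBM5 KO cells were a transduced population with no clone named, no empty cDNA vector was named as a control for RBM5 OE, and the labels give no day of harvest and list no treatment. All groups grew in RPMI-1640 medium with fetal bovine serum. By the study's methods, Cas9 lines were selected with blasticidin and guide-transduced cells with puromycin, while the cDNA vector carries Venus, so vector and selection cannot be told apart from RBM5 OE in its comparisons.

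Azurophil (primary) granules form at the promyelocyte stage. They hold myeloperoxidase, lysozyme and the neutrophil serine proteases, which are made as inactive precursors, trimmed to the active form and stored bound to the serglycin proteoglycan until the granule fuses with a phagosome. Transcription of these genes in myeloid precursors depends on factors such as PU.1, C/EBP proteins, RUNX1 and MYB. Monocytes keep lysozyme at a high level while the serine proteases are switched off as precursors mature. RBM5 is a splicing regulator with RNA recognition motifs and zinc fingers.

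The targeted gene followed the labels. RBM5 had 70.5, 73.9 and 79.4 CPM (counts scaled to the library total by TMM factors over the 9 libraries) in RBM5 KO, 380, 414 and 416 CPM in RBM5 OE, and 122, 117 and 113 CPM in CTRL. The 3 groups did not overlap, and RBM5 mRNA was still present in every RBM5 KO library. The study reports less RBM5 protein by immunoblot in MOLM13 cells given its RBM5 guides. RNA-seq does not measure protein, so the mRNA level does not give the degree of RBM5 protein loss. By edgeR's quasi-likelihood test with Benjamini-Hochberg adjustment, used for every adjusted p here with a call at an adjusted p under 0.05, the log2 fold change was −0.65 in RBM5 KO (adjusted p = 0.00692) and 1.78 in RBM5 OE (adjusted p = 4.11e-08), each against CTRL. The RBM5 KO call was lost on the log2(TPM + 1) scale (adjusted p = 0.0638), on the log2(TPM + 0.1) scale (0.0633) and without CTRL replicate 1 (0.0606). Library totals were 25522936 to 27871975 counts. All 12 myeloid markers had a mean TPM over 1 across the 9 libraries. The same held for 0 of 7 erythroid, 1 of 5 megakaryocyte, 1 of 7 lymphocyte and 3 of 6 fibroblast and epithelium markers. The summed myeloid levels were 1397 to 1962 TPM in RBM5 KO, 1688 to 1726 in RBM5 OE and 1556 to 1704 in CTRL. Of the 12 myeloid markers, 4 were called higher and 2 lower in RBM5 OE than in CTRL, where 40.1% of all genes tested were called. In RBM5 KO against CTRL only FLT3 was called (lower, log2 fold change −0.60, adjusted p = 0.0170). The fibroblast and epithelium sums were 14.8 to 15.8 TPM in RBM5 KO, 10.7 to 12.9 in RBM5 OE and 10.6 to 16.0 in CTRL. KRT18 of that list was called lower in RBM5 OE than in CTRL (log2 fold change −0.46, adjusted p = 0.0185). The part of fibroblast or epithelial cells in the results was not tested. CTRL replicate 3 and RBM5 KO replicate 1 stood apart from the other libraries of their groups on the second principal component, and RBM5 KO against CTRL is given without both further on.

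Set by level per length, the 9 genes differed widely in rank. PRTN3 averaged 5906 ± 616 TPM (transcript abundance per length, scaled to a fixed library sum) in RBM5 KO, 3184 ± 286 TPM in RBM5 OE and 5240 ± 427 TPM in CTRL (SD, n = 3 each), and ranked 21 to 30 among all genes in CTRL. In CTRL, AZU1 ranked 46 to 52, SRGN 44 to 61, ELANE 65 to 69, LYZ 117 to 128 and CTSG 125 to 128. CTSD, a protease of lysosomes in every cell, ranked 482 to 563 there. MPO ranked 2997 to 4252 in CTRL and LPO 9530 to 9810, so that both peroxidases were far below AZU1, PRTN3, ELANE and CTSG. Together the 9 genes took 1.93% ± 0.0619 of all TPM in RBM5 KO, 1.26% ± 0.0229 in RBM5 OE and 1.71% ± 0.0759 in CTRL.

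Within that pool the shares shifted between genes. PRTN3 made 30.6% of the members' TPM in RBM5 KO, 25.3% in RBM5 OE and 30.7% in CTRL. AZU1 made 16.6% in RBM5 KO, 27.9% in RBM5 OE and 19.8% in CTRL, so it was the largest part in RBM5 OE. LYZ made 10.3% in RBM5 KO, 3.91% in RBM5 OE and 6.85% in CTRL. CTSG made 3.14% in RBM5 KO, 6.21% in RBM5 OE and 6.54% in CTRL. In bulk RNA, fewer cells that make a transcript and less of it per cell cannot be told apart.

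**Figure D1:**
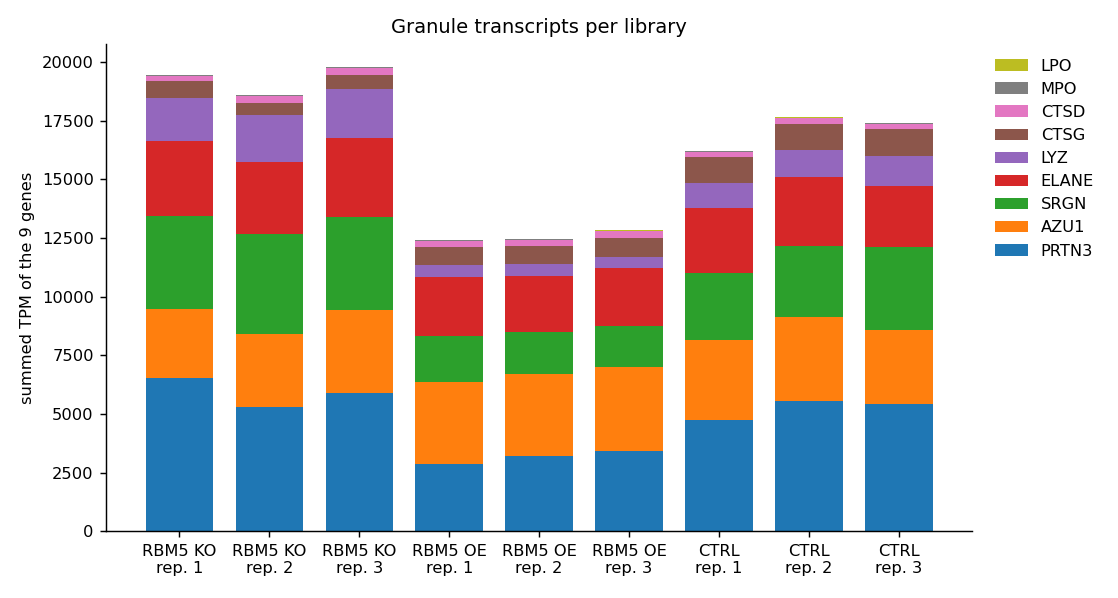
Summed TPM of the 9 granule genes in each library (bars stacked by gene, 1 bar per library; RBM5 KO, RBM5 OE and CTRL, 3 replicates each). The 3 RBM5 OE bars are the lowest, the AZU1 segment is of similar height in all bars, and the LYZ and SRGN segments are thickest in RBM5 KO.

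Several members lie next to each other in the genome (GRCh37, strand and span from GENCODE). AZU1 (chr19:825097-832018), PRTN3 (chr19:840999-848175) and ELANE (chr19:851014-856247) stand in a row on the plus strand, with 8980 bp and 2838 bp between them and 0 annotated genes in the gaps. LPO (chr17:56295909-56345879, plus strand) and MPO (chr17:56347216-56358296, minus strand) face each other end to end with 1336 bp and 0 genes between. LYZ lies at chr12:69742161-69748014 (plus, 4 exons), CTSG at chr14:25042724-25045456 (minus, 5 exons), CTSD at chr11:1773982-1785803 (minus, 9 exons) and SRGN at chr10:70847859-70864561 (plus, 3 exons).

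The bases before the start site are shown for the neighbours PRTN3 and AZU1, which differed in response, and for CTSG and LPO, which went against most other members in RBM5 KO. Each run is the 250 bases before the RefSeq start of the gene, 5′ to 3′ on the gene's strand, taken from RefSeq (table build GRCh38.p14) and placed in GRCh37 by exact match. The positions are chr19:840749-840998 (plus) for PRTN3, chr19:827587-827836 (plus) for AZU1, chr14:25045457-25045706 (minus) for CTSG and chr17:56315695-56315944 (plus) for LPO. Promoters of 5 members (PRTN3, AZU1, CTSG, LPO and CTSD) of 9 were matched by symbol. Capitals mark matches to any of 5 motifs on either strand: GAGGAA (PU.1 and other ETS factors), TGTGGT (RUNX), AACNG (MYB), TTNNGNAA (C/EBP) and TATAA (TATA box).
PRTN3: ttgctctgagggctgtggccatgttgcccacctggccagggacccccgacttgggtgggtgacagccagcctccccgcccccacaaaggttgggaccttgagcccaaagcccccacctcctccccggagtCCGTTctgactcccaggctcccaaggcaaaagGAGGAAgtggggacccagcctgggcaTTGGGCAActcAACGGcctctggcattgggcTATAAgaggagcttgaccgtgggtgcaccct
AZU1: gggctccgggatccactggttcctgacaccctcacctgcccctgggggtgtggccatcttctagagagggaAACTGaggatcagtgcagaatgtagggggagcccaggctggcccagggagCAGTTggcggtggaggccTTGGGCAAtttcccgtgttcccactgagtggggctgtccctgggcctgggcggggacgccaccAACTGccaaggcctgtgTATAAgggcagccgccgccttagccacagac
CTSG: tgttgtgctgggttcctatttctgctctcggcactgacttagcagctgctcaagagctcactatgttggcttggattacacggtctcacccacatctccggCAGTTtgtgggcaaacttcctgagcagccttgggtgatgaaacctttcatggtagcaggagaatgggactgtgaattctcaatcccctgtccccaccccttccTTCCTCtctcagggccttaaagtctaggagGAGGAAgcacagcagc
LPO: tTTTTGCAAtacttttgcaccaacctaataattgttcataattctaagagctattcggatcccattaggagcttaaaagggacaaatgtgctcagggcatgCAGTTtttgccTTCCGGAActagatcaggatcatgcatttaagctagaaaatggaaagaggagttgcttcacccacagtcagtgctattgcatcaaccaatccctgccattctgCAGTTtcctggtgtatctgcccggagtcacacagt

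The same search over 35116 promoter windows of this length found GAGGAA in 23.6%, TGTGGT in 11% (no printed window held it), AACNG in 70.6%, TTNNGNAA in 33.2% and TATAA in 18.9%. PRTN3 and AZU1 each held TATAA 31 to 27 bases before the start and the same 8 bases TTGGGCAA, at 62 to 55 in PRTN3 and at 111 to 104 in AZU1. GAGGAA was in the PRTN3 window once, 88 to 83 bases before the start, and in the CTSG window at 2 places, as TTCCTC at 46 to 41 and GAGGAA at 16 to 11. LPO held neither GAGGAA nor TATAA, and 2 places that matched TTNNGNAA, of which TTCCGGAA reads on both strands. No printed motif overlapped another. These are letter matches in a window, described beside the values and not tested for binding. The RefSeq starts of AZU1 and LPO lie inside the GENCODE spans given above, downstream of the GENCODE starts.

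LYZ was called in opposite directions in RBM5 KO and RBM5 OE, LPO likewise with the signs turned, and CTSG was lower in both. In RBM5 KO against CTRL, 3 of 9 members were called (LYZ higher, CTSG and LPO lower), where 2.51% of the 14218 genes tested were called, 0.837% higher and 1.67% lower. Against CTRL, RBM5 OE had 6 of 9 called (LPO higher; LYZ, ELANE, PRTN3, CTSG and SRGN lower), where 40.1% of 14370 genes were called, 19.8% higher and 20.2% lower. Between RBM5 OE and RBM5 KO, 7 of 9 were called (LPO and CTSG higher; LYZ, MPO, ELANE, PRTN3 and SRGN lower), where 40.1% of 14754 genes were called, 19.5% higher and 20.6% lower. Groups did not overlap for 5 of 9 members in RBM5 KO against CTRL (22.9% of genes tested), 6 of 9 in RBM5 OE against CTRL (51.7%) and 7 of 9 in RBM5 OE against RBM5 KO (52.6%). The median log2 fold change of the members was 0.20 in RBM5 KO against CTRL, −0.22 in RBM5 OE against CTRL and −0.42 in RBM5 OE against RBM5 KO, beside 0.01, 0.01 and −0.00 over all genes tested. The 3 CTRL libraries serve both comparisons with CTRL.

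Leaving out CTRL replicate 3 and RBM5 KO replicate 1 together was chosen after seeing the data. It left fewer libraries in RBM5 KO and CTRL, those that lay closest together. The p-values of that fit were therefore set against a spread narrowed by the choice. In it the 3 calls in RBM5 KO against CTRL stayed and 3 more members were called. LYZ was at a log2 fold change of 0.83 (adjusted p = 1.24e-07), CTSG at −1.04 (1.09e-08) and LPO at −1.55 (2.26e-06). SRGN at 0.44 (adjusted p = 0.000794), MPO at 0.32 (0.0299) and CTSD at 0.31 (0.0291) were added. Not called were ELANE at 0.14 (adjusted p = 0.372), PRTN3 at 0.08 (0.674) and AZU1 at −0.10 (0.569). This made 6 of 9 members, where 13.6% of genes tested were called in the same fit, and RBM5 itself was at −0.64 (adjusted p = 1.59e-05). The same 7 members were called in RBM5 OE against RBM5 KO.

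**Figure D2:**
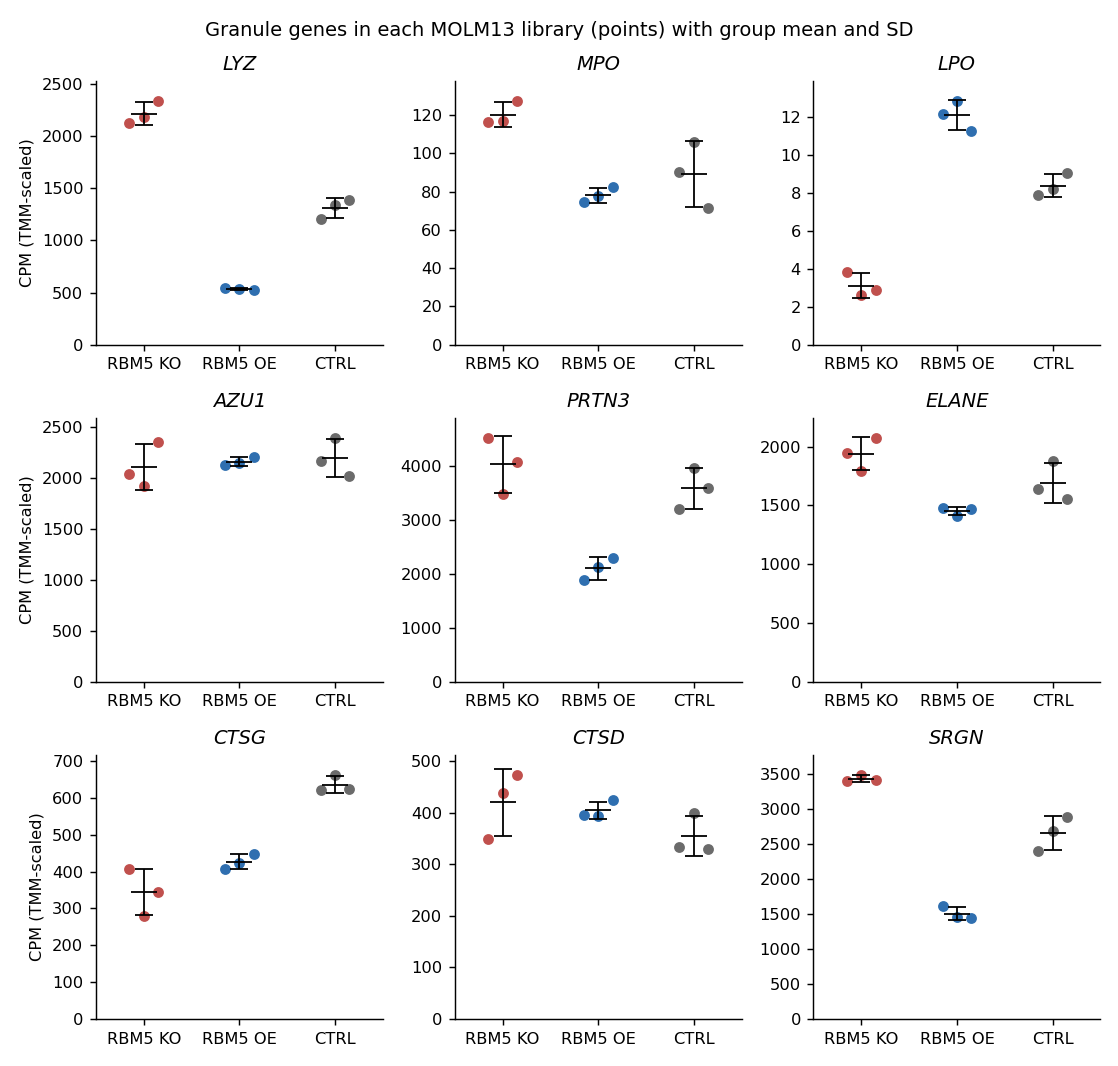
CPM of each granule gene (1 panel per gene, y axis from 0) in the RBM5 KO, RBM5 OE and CTRL libraries; points are libraries, horizontal bars the mean and whiskers the SD (n = 3). LYZ and SRGN are lowest in RBM5 OE, LPO is lowest in RBM5 KO, CTSG is highest in CTRL, and the 3 groups overlap for AZU1.

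Lysozyme moved in both directions with RBM5. LYZ encodes the enzyme that cleaves bacterial peptidoglycan. It had 2126, 2179 and 2342 CPM in RBM5 KO, 546, 533 and 527 CPM in RBM5 OE, and 1204, 1337 and 1385 CPM in CTRL. Every RBM5 KO library lay above every CTRL library, and every RBM5 OE library lay below all of them. LYZ was higher in RBM5 KO than in CTRL (log2 fold change 0.76, SE 0.086, adjusted p = 0.00524), and lower in RBM5 OE than in CTRL (−1.29, SE 0.066, adjusted p = 4.30e-07). RBM5 OE stood 2.05 below RBM5 KO on the log2 scale (log2 fold change −2.05, SE 0.072, adjusted p = 2.80e-08). The same calls in the 3 comparisons were made for 41 of 14019 genes (0.292%). Without CTRL replicate 1 the RBM5 KO value was 0.70 with an adjusted p of 0.0576, the highest of 17 alternatives (7.42e-13 to 0.0576).

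The 2 peroxidases, side by side on chromosome 17, took opposite directions between RBM5 OE and RBM5 KO. LPO encodes lactoperoxidase, which is best known from milk, saliva and airway secretions. It had 3.84, 2.62 and 2.87 CPM in RBM5 KO (105, 71 and 78 counts), 12.1, 12.8 and 11.3 CPM in RBM5 OE (332, 364 and 297 counts), and 7.89, 8.19 and 9.03 CPM in CTRL (201, 210 and 239 counts). The groups were apart, in the order of RBM5 itself. LPO was lower in RBM5 KO than in CTRL (log2 fold change −1.43, SE 0.19, adjusted p = 0.00706) and higher in RBM5 OE than in CTRL (0.53, SE 0.12, adjusted p = 0.00367). The RBM5 OE to RBM5 KO difference was 1.96 (SE 0.16, adjusted p = 5.34e-06), and these calls in the 3 comparisons were made for 107 of 14019 genes (0.763%). The RBM5 KO call was lost without CTRL replicate 1 (adjusted p = 0.0576) or CTRL replicate 2 (0.0515), within a range of 8.79e-08 to 0.0576 over 17 alternatives. The annotated LPO span overlaps MKS1 on the other strand, and the counting did not use strand. Reads from any exonic bases that both genes share could not be told apart. Only spans were compared, so whether such bases exist is not shown. MKS1 had 11.4 to 14.4 TPM in RBM5 KO, 16.3 to 19.1 TPM in RBM5 OE and 14.3 to 17.0 TPM in CTRL, above LPO in every group. Its part in the LPO result was not tested.

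MPO encodes myeloperoxidase, which makes hypochlorous acid in neutrophils and monocytes. It had 116, 117 and 128 CPM in RBM5 KO, 74.4, 77.9 and 82.1 CPM in RBM5 OE, and 90.1, 106 and 71.5 CPM in CTRL. The RBM5 KO libraries lay above all others, but the CTRL libraries spread widely, and CTRL replicate 3 was the lowest of the 9. MPO was lower in RBM5 OE than in RBM5 KO (log2 fold change −0.62, SE 0.12, adjusted p = 0.00156). Against CTRL it was not called in RBM5 KO (0.43, SE 0.13, adjusted p = 0.142) or in RBM5 OE (−0.19, SE 0.12, adjusted p = 0.221). Without CTRL replicate 3 the RBM5 OE value was −0.33 and was called (adjusted p = 0.00246; range over 16 alternatives 0.00246 to 0.735), and the RBM5 KO value was called by DESeq2 (0.0405) and, at 0.32, without both libraries that stood apart (0.0299; range over 17 alternatives 0.0299 to 0.343). The ratio of MPO to LPO within a library was 39.8 ± 8.21 in RBM5 KO, 6.49 ± 0.692 in RBM5 OE and 10.8 ± 2.57 in CTRL (CPM ratio, SD, n = 3 each).

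In the chromosome 19 row of serine protease genes, the 3 neighbours differed. AZU1 encodes azurocidin, a protease homolog without catalytic activity that kills bacteria and attracts monocytes. It had 2042, 1925 and 2358 CPM in RBM5 KO, 2126, 2155 and 2214 CPM in RBM5 OE, and 2173, 2399 and 2027 CPM in CTRL. The groups overlapped throughout. AZU1 was not called in RBM5 KO (−0.06, SE 0.10, adjusted p = 0.811) or RBM5 OE (−0.02, SE 0.066, adjusted p = 0.832) against CTRL, nor between RBM5 OE and RBM5 KO (0.04, SE 0.085, adjusted p = 0.752). The sign of the small RBM5 OE values turned under some settings.

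PRTN3 encodes proteinase 3, the autoantigen of granulomatosis with polyangiitis. It had 4524, 3478 and 4080 CPM in RBM5 KO, 1882, 2132 and 2295 CPM in RBM5 OE, and 3198, 3970 and 3587 CPM in CTRL. The RBM5 OE libraries lay below all the rest, while RBM5 KO and CTRL overlapped. PRTN3 was lower in RBM5 OE than in CTRL (log2 fold change −0.77, SE 0.088, adjusted p = 6.39e-05) and than in RBM5 KO (−0.94, SE 0.11, adjusted p = 6.38e-05), and it was not called in RBM5 KO against CTRL (0.17, SE 0.12, adjusted p = 0.518). Its ratio to AZU1 in the same library was 1.92 ± 0.261 in RBM5 KO, 0.970 ± 0.0776 in RBM5 OE and 1.63 ± 0.150 in CTRL (CPM ratio, SD, n = 3 each).

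ELANE encodes neutrophil elastase, whose mutations cause cyclic and severe congenital neutropenia. It had 1949, 1792 and 2075 CPM in RBM5 KO, 1477, 1410 and 1468 CPM in RBM5 OE, and 1637, 1878 and 1551 CPM in CTRL. The RBM5 OE libraries were again the lowest, close below the lowest CTRL library. ELANE was lower in RBM5 OE than in RBM5 KO (log2 fold change −0.42, SE 0.081, adjusted p = 0.00175) and than in CTRL (−0.22, SE 0.072, adjusted p = 0.0316), and not called in RBM5 KO against CTRL (0.20, SE 0.098, adjusted p = 0.346). The call against CTRL was lost with all 9 libraries in 1 fit (adjusted p = 0.0587) and without CTRL replicate 2 (−0.14, 0.0574) or RBM5 OE replicate 1 (0.0679), 2 (0.136) or 3 (0.0777), within a range of 0.00203 to 0.136 over 16 alternatives.

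CTSG was lower than in CTRL in both perturbations. It encodes cathepsin G, the chymotrypsin-like protease of azurophil granules. It had 406, 281 and 345 CPM in RBM5 KO, 409, 424 and 449 CPM in RBM5 OE, and 621, 663 and 624 CPM in CTRL. Every library of RBM5 KO and of RBM5 OE lay below every CTRL library, and the RBM5 OE libraries lay just above those of RBM5 KO. CTSG was lower than in CTRL both in RBM5 KO (log2 fold change −0.89, SE 0.13, adjusted p = 0.00968) and in RBM5 OE (−0.57, SE 0.063, adjusted p = 4.63e-05), and higher in RBM5 OE than in RBM5 KO (0.31, SE 0.11, adjusted p = 0.0408). Calls of these directions in the 3 comparisons were made for 13 of 14019 genes (0.0927%).

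The CTSG calls differed in how firmly they stood. The RBM5 KO call was lost without CTRL replicate 1 (adjusted p = 0.0668) or CTRL replicate 2 (0.0643; range over 17 alternatives 1.70e-09 to 0.0668), and RBM5 KO replicate 1 was 0.39 above the other RBM5 KO libraries on the log2 scale. The call between RBM5 OE and RBM5 KO was lost with only the 6 libraries compared (0.0679) and without CTRL replicate 1 (0.0596), RBM5 KO replicate 2 (0.19, 0.125) or 3 (0.0914), or RBM5 OE replicate 1 (0.066), 2 (0.0924) or 3 (0.129), within a range of 0.000197 to 0.129 over 20 alternatives. The call of RBM5 OE against CTRL was made in all 16 alternatives. The ratio of LYZ to CTSG was 6.59 ± 1.28 in RBM5 KO, 1.26 ± 0.0811 in RBM5 OE and 2.06 ± 0.145 in CTRL (CPM ratio, SD, n = 3 each).

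SRGN had its groups in the same order as lysozyme. It encodes serglycin, the core protein of the proteoglycan that retains proteases in the granule. It had 3399, 3492 and 3413 CPM in RBM5 KO, 1616, 1460 and 1444 CPM in RBM5 OE, and 2400, 2683 and 2885 CPM in CTRL. The 3 groups did not overlap, with RBM5 KO on top. SRGN was lower in RBM5 OE than in CTRL (log2 fold change −0.82, SE 0.076, adjusted p = 1.54e-05) and than in RBM5 KO (−1.19, SE 0.076, adjusted p = 1.58e-06). In RBM5 KO against CTRL it missed the threshold (0.37, SE 0.087, adjusted p = 0.0628), and it was called by DESeq2 (0.00482), with all 9 libraries in 1 fit (0.0148), without RBM5 KO replicate 1 (0.0365) and without both libraries that stood apart (0.000794), within a range of 0.000794 to 0.268 over 17 alternatives.

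CTSD encodes cathepsin D, the aspartic protease of lysosomes. It had 348, 438 and 473 CPM in RBM5 KO, 395, 394 and 424 CPM in RBM5 OE, and 334, 398 and 329 CPM in CTRL. All groups overlapped. CTSD was not called in RBM5 KO against CTRL (0.25, SE 0.13, adjusted p = 0.372), in RBM5 OE against CTRL (0.19, SE 0.079, adjusted p = 0.0683) or between RBM5 OE and RBM5 KO (−0.05, SE 0.11, adjusted p = 0.732). Without CTRL replicate 2 the RBM5 OE value against CTRL was 0.28 and was called (adjusted p = 0.00567), as it was with library totals alone (0.0236), with no filter on low counts (0.0419) and on the TPM scales (0.0293 and 0.0296; range over 16 alternatives 0.00567 to 0.256), and without both libraries that stood apart the RBM5 KO value was 0.31 and was called (0.0291; range over 17 alternatives 0.0291 to 0.692).

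**Figure D3:**
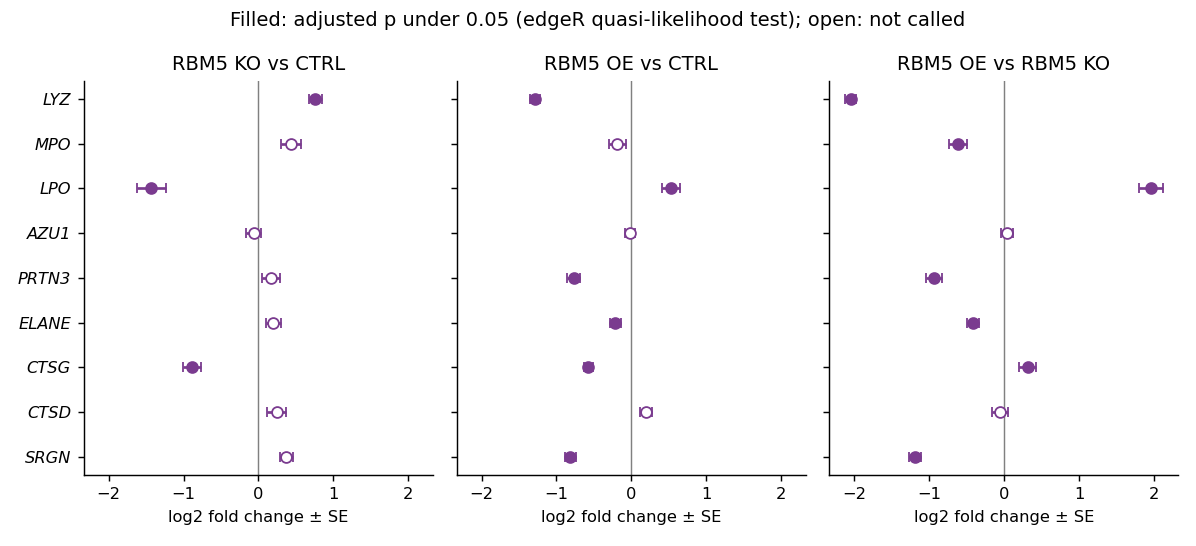
Log2 fold change of each granule gene with its standard error in 3 comparisons (x axis; genes from top to bottom), from edgeR's quasi-likelihood fits. Filled points are called at an adjusted p under 0.05: LYZ, CTSG and LPO in RBM5 KO against CTRL, 6 genes in RBM5 OE against CTRL and 7 in RBM5 OE against RBM5 KO.

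Set against RBM5, the libraries formed 3 clusters, so no correlation over libraries is given for it. The order of group means was RBM5 KO over CTRL over RBM5 OE for LYZ, SRGN, PRTN3, ELANE and MPO, and the reverse for LPO. CTSD means ran RBM5 KO over RBM5 OE over CTRL, and CTSG and AZU1 had their highest mean in CTRL. Neighbouring groups overlapped for CTSD and AZU1, between RBM5 KO and CTRL for PRTN3 and ELANE, and between CTRL and RBM5 OE for MPO. The genes most like each member over the 9 libraries, by Pearson's r of log2 CPM among 11630 genes, were SRGN (0.99) and MGST1 (0.99) for LYZ, SLPI (0.98) and EBP (0.96) for MPO, and EME1 (0.99) and TCEA2 (0.99) for LPO. For the serine proteases they were NACC1 (0.99) and GFOD2 (0.99) for PRTN3, HEXIM1 (0.98) and LPPR3 (0.98) for ELANE, OST4 (0.98) and LSM10 (0.95) for AZU1, and PYCR1 (0.98) and PUS1 (0.98) for CTSG. PILRA (0.95) and PIM2 (0.95) were nearest to CTSD, and LYZ (0.99) and KIAA2013 (0.99) to SRGN. Over the 3 comparisons, the calls of PRTN3, ELANE and SRGN were shared by 2114 of 14019 genes (15.1%), those of MPO by 793 (5.66%), and the absence of any call in AZU1 and CTSD by 6701 (47.8%). The 9 points of each correlation share 3 groups and their libraries, so these values describe the group pattern.

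**Figure D4:**
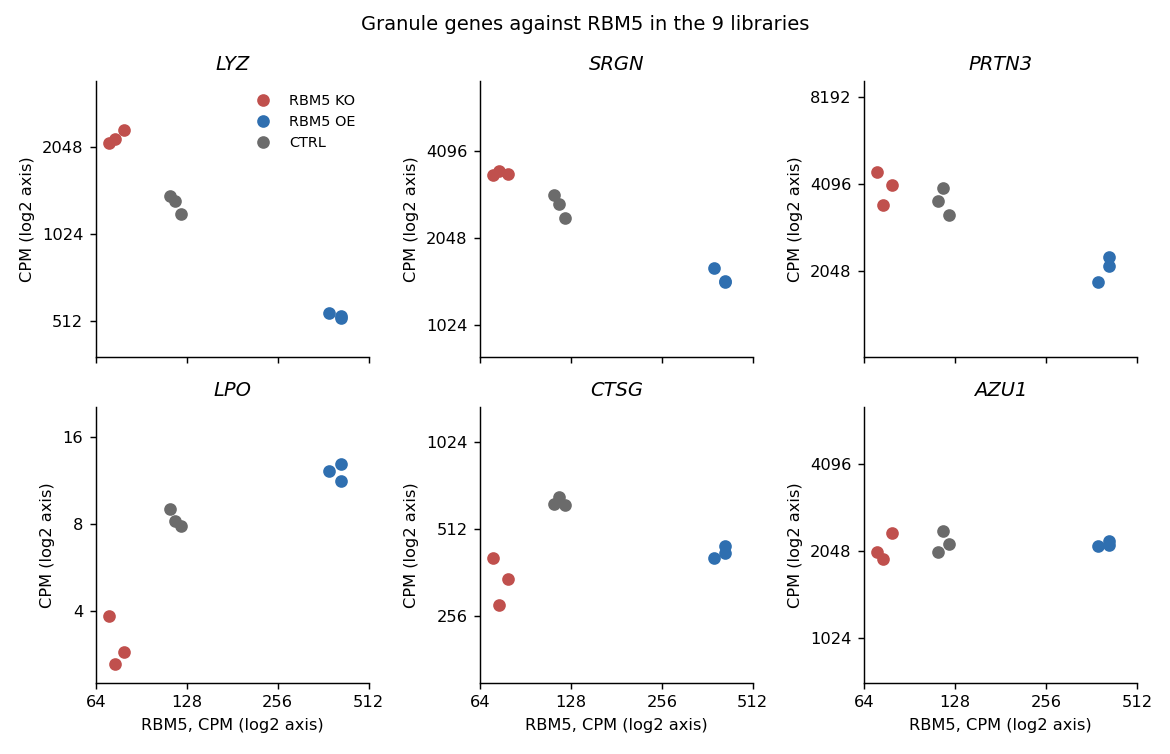
CPM of 6 granule genes (y axes, log2 scale spanning the same fold range in each panel) against RBM5 CPM (x axis, log2 scale) in the 9 libraries, coloured by RBM5 KO, RBM5 OE and CTRL. LYZ and SRGN are lower where RBM5 is higher, LPO is higher where RBM5 is higher, CTSG is highest in CTRL at the middle RBM5 level, and AZU1 is at one height.

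Other genes of the granule pathway were counted by list. In RBM5 KO against CTRL, 2.51% of all genes tested were called. Of 11 other azurophil granule proteins, 7 could be tested, and edgeR's test called none of 7 in RBM5 KO against CTRL (1 with an unadjusted p under 0.05, 1 called by DESeq2, 0 by limma-voom). RBM5 OE had 3 of 7 lower than CTRL and none higher, where 20.2% of all genes tested were called lower and 19.8% higher. RNASE2, the eosinophil-derived neurotoxin, averaged 200 ± 13.3 CPM in RBM5 OE and 366 ± 29.7 CPM in CTRL (log2 fold change −0.87, SE 0.077, adjusted p = 1.12e-05). RNASE3, eosinophil cationic protein, was the second (−0.45, adjusted p = 0.00311), and reads of these close paralogs may have been split either way. BPI, which binds bacterial lipopolysaccharide, was the third (−0.29, adjusted p = 0.0331), a call lost in 4 fits without 1 library (CTRL replicate 2, RBM5 OE replicate 1, 2 or 3, adjusted p = 0.0558 to 0.112) and in 5 other settings. BPI was also lower in RBM5 OE than in RBM5 KO (−1.17, adjusted p = 0.000370).

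Of 6 eosinophil granule genes, 4 could be tested, and 2 of 4 were higher in RBM5 KO than in CTRL, where 0.837% of all genes tested were. PRG2, the major basic protein of eosinophils, averaged 494 CPM in RBM5 KO and 135 CPM in CTRL (log2 fold change 1.87, SE 0.21, adjusted p = 0.00524). EPX, eosinophil peroxidase and a relative of MPO and LPO, averaged 8.52 ± 2.26 CPM in RBM5 KO and 1.67 ± 0.509 CPM in CTRL (2.35, SE 0.29, adjusted p = 0.00601). All 4 of 4 (PRG2, EPX, RNASE2 and RNASE3) were lower in RBM5 OE than in RBM5 KO, where 20.6% of all genes tested were. Both RBM5 KO calls were lost without CTRL replicate 1 (adjusted p = 0.0576 each). EPX was also higher in RBM5 OE than in CTRL (0.74, SE 0.27, adjusted p = 0.0440; call made in 6 of 16 alternatives, range of adjusted p up to 0.189), with RNASE2 and RNASE3 lower as above and PRG2 at 0.24 (adjusted p = 0.275), so EPX was above CTRL in both perturbations. Of 10 granzymes and mast cell proteases, the 2 that could be tested, the tryptases TPSAB1 and TPSB2, stayed under 4 CPM in every group mean, are near-identical in sequence and were called in none of the comparisons (in RBM5 KO against CTRL 1 had an unadjusted p under 0.05, DESeq2 called 1 and limma-voom 0).

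Lysosomal genes were called in both directions. Of 21 tested, none was called in RBM5 KO against CTRL by edgeR (5 with an unadjusted p under 0.05, 1 called by DESeq2, 0 by limma-voom). With RBM5 OE against CTRL, 5 were higher (CTSH, PSAP, GRN, CTSB and CTSS) and 2 lower, CTSA among them. This made 7 of 21 called, where 40.1% of all genes tested were called, 19.8% higher and 20.2% lower. CTSH, a cysteine protease, averaged 91.8 ± 3.96 CPM in RBM5 OE and 40.0 ± 5.50 CPM in CTRL (log2 fold change 1.20, SE 0.096, adjusted p = 6.14e-06). PSAP, the precursor of saposins, was 0.80 higher on the log2 scale (adjusted p = 6.97e-05) and GRN, progranulin, 0.68 higher (adjusted p = 1.44e-05). CTSB, another cysteine protease, was 0.28 higher (adjusted p = 0.0117), a call lost without RBM5 OE replicate 3 (0.0669) and with all 9 libraries in 1 fit (0.0532). The CTSS call (0.19, adjusted p = 0.0430) was made in 6 of 16 alternatives and lost without CTRL replicate 1 (0.181) or RBM5 OE replicate 1 (0.177), 2 (0.153) or 3 (0.0706). CTSA (−0.20, adjusted p = 0.0378) lost its call without CTRL replicate 2 (0.103) or RBM5 OE replicate 1 (0.0906), 2 (0.147) or 3 (0.0723).

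Specific and gelatinase granules belong to later neutrophil stages, and 4 of their 16 genes could be tested. HP, haptoglobin, was the only one of these 4 called in RBM5 KO against CTRL (log2 fold change 1.41, SE 0.24, adjusted p = 0.0208). That call was lost in the fits without CTRL replicate 1, 2 or 3 and without RBM5 KO replicate 2 or 3 (adjusted p = 0.0601 to 0.145), with limma-voom (0.0515) and on the log2(TPM + 1) scale (0.126). In RBM5 OE against CTRL, 3 of the 4 were called, where 40.1% of all genes tested were. CHI3L1, a chitinase-like protein, was higher in RBM5 OE than in CTRL (0.49, adjusted p = 0.00115, lost with all 9 libraries in 1 fit at 0.0696), as was the membrane protease MMP25 (0.63, adjusted p = 0.0342), and HP was lower (−0.39, adjusted p = 0.0497). The MMP25 call was lost without CTRL replicate 2 or 3 or RBM5 OE replicate 1 or 3 (adjusted p = 0.065 to 0.122), and the HP call in RBM5 OE was lost without CTRL replicate 1 or 2 or RBM5 OE replicate 2 or 3 (0.0517 to 0.179).

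Protease inhibitors of the serpin, cystatin and other families were counted next, whether or not the proteases followed here are their targets. Of 12 tested, 2 were higher in RBM5 KO than in CTRL, where 0.837% of all genes tested were. SERPINB10, a serpin of myeloid cells, averaged 22.0 CPM in RBM5 KO and 5.21 CPM in CTRL (log2 fold change 2.08, SE 0.15, adjusted p = 0.00109). SERPINB2, which inhibits urokinase, averaged 11.8 ± 2.15 CPM in RBM5 KO and 2.18 ± 0.774 CPM in CTRL (2.44, SE 0.25, adjusted p = 0.00443). Compared with CTRL, 1 was higher in RBM5 OE (SERPINA1) and 4 were lower (SERPINB2, SERPINB10, CSTB and CST7). Of all genes tested there, 40.1% were called, 19.8% higher and 20.2% lower. SERPINA1, the alpha-1 antitrypsin that inhibits elastase, had 2.12 CPM in RBM5 OE and 0.838 CPM in CTRL (1.34, SE 0.28, adjusted p = 0.00271), a call lost with all 9 libraries in 1 fit (0.0559), on the log2(TPM + 1) scale, where the value was 0.68 (0.0502), and on the log2(TPM + 0.1) scale (0.0572). Without RBM5 OE replicate 2 the calls of SERPINB10 (0.0558), CSTB (0.0592) and CST7 (0.192) were lost, which left SERPINB2 of the 4 that were lower. CST7 was called in 5 of 16 alternatives and SERPINB10 in 7 of 16, with losses also without RBM5 OE replicate 1 or 3 and CTRL replicate 2 for both. SERPINB2 averaged 0.0880 CPM in RBM5 OE, too few counts for a fold change. SLPI, the secreted inhibitor of elastase and cathepsin G, was lower in RBM5 OE than in RBM5 KO (−1.49, SE 0.26, adjusted p = 0.000892).

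Of 11 genes listed for maturation and sorting of granule proteins or as genes of severe congenital neutropenia, 1 was higher and 1 lower in RBM5 KO than in CTRL. Of all genes tested, 0.837% were called higher and 1.67% lower. HSPA5, the main chaperone of the endoplasmic reticulum, was higher (log2 fold change 0.53, SE 0.097, adjusted p = 0.0280). HAX1, which like ELANE is a gene of severe congenital neutropenia, averaged 58.0 CPM in RBM5 KO and 103 CPM in CTRL (−0.83, SE 0.11, adjusted p = 0.00706). The 2 genes of this list called in RBM5 OE against CTRL were both lower: HSPA5 (−0.45, adjusted p = 0.000954) and the chaperone CALR (−0.38, adjusted p = 0.00464). Among all genes tested, 20.2% were called lower in that comparison. The HSPA5 call in RBM5 KO was lost without CTRL replicate 1, 2 or 3 or RBM5 KO replicate 2 or 3 (adjusted p = 0.0592 to 0.136) and on the log2(TPM + 1) scale (0.0529), and the HAX1 call without CTRL replicate 1 (0.0638) or 2 (0.0537).

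Of 15 transcription factors of granule genes, 14 could be tested in RBM5 KO against CTRL, and CEBPB was the only one of these called. This C/EBP factor of emergency granulopoiesis and monocytes averaged 25.4 ± 2.28 CPM in RBM5 KO, 110 ± 9.68 CPM in RBM5 OE and 51.1 ± 10.6 CPM in CTRL. It was lower in RBM5 KO than in CTRL (log2 fold change −1.01, SE 0.16, adjusted p = 0.0135) and higher in RBM5 OE than in CTRL (1.11, SE 0.13, adjusted p = 6.98e-05). The RBM5 KO call was lost without CTRL replicate 1 (adjusted p = 0.0954), CTRL replicate 2 (0.0792) or RBM5 KO replicate 3 (0.0708). Of 13 factors tested in RBM5 OE against CTRL, 6 were higher (CEBPB, EGR1, EGR2, KLF4, RUNX1 and SPI1) and 3 lower (IRF8, CEBPD and CEBPA), where 40.1% of all genes tested were called. Without RBM5 OE replicate 1 the calls of EGR2 (0.0942), KLF4 (0.115), RUNX1 (0.0966) and SPI1 (0.205) were lost, which left CEBPB and EGR1 of the 6. These 4 calls were also lost without RBM5 OE replicate 2 (0.0577 to 0.0882) or 3 (0.0511 to 0.137), and DESeq2 called 7 factors in place of 9. IRF8, a factor of monocyte and dendritic cell fate, averaged 246 CPM in RBM5 OE and 473 CPM in CTRL (−0.94, SE 0.11, adjusted p = 8.80e-05). CEBPA, which is needed for the step to granulocyte and monocyte progenitors, averaged 729 CPM in RBM5 OE and 879 CPM in CTRL (−0.27, adjusted p = 0.00471).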

How the data were processed

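MOLM13 RNA was depleted of ribosomal RNA (Kapa HyperPrep with RiboErase) and sequenced as paired ends on NovaSeq. Per the submitters' processing notes, the authors trimmed with Trim Galore, aligned with STAR 2.7.1a to hg19 (GRCh37.p13) and quantified genes with RSEM without using strand; GATK 4.1.2.0 is also named. The deposited table of expected counts held RSEM's estimated read numbers per gene, not normalized, and was rounded here to whole numbers. The deposited TPM table was scaled by the authors to gene length and a fixed library sum; it was used for levels between genes and for 2 alternatives. The study's methods name another quantifier (Salmon), which was not reconciled. All 92 spike-in rows summed to 0 counts and were left out.

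Totals per library were 25522936 to 27871975 counts. Groups came from the labels, which number the replicates, and the study calls them biological. The labels do not say whether they were separate transductions. P-values set group differences against the spread between these libraries. edgeR 4.0.16 (R 4.3.3) was run with filterByExpr, TMM and the quasi-likelihood test, Benjamini-Hochberg adjusted over all genes tested, with 6 libraries for each comparison with CTRL and all 9 for RBM5 OE against RBM5 KO. The biological coefficient of variation was 0.145 for RBM5 KO against CTRL, 0.0956 for RBM5 OE against CTRL and 0.125 over all 9 libraries. CPM were scaled by TMM over the 9 libraries, and log2 CPM used a prior count of 2. The fits were tested first on simulated counts with log2 changes of −2, −1, 1 and 2. In RBM5 KO against CTRL, 68% of changes of −1 and 74% of changes of 1 were recovered. These shares were 74% and 82% in RBM5 OE against CTRL and 62% and 76% in RBM5 OE against RBM5 KO. Smaller changes were not simulated.

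The text names all 9 granule genes, RBM5, up to 4 genes with the smallest p per other list and comparison, list genes needed for a count of 5 or fewer, and the 2 genes most correlated with each member; TPSAB1, TPSB2, MKS1 and CEBPA were named after their values were seen, and a withheld item is not reported here. The members and lists were chosen with earlier results of these data known. Alternatives were DESeq2 1.42.0, limma-voom (limma 3.58.1), RLE factors, library totals, other filters, other libraries in the fit, limma on log2(TPM + 1) and log2(TPM + 0.1), a replicate block and leaving out each library; leaving out CTRL replicate 3 and RBM5 KO replicate 1 together was chosen after seeing the data. Replicates of a group differed by more than sampling noise (chi-square per degree of freedom 3.87 to 39.3).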

Additional observations from a re-analysis of the deposited data

How the results depend on the processing

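The number of members called in RBM5 KO against CTRL was 3 and depended on the processing. It was 5 with DESeq2 and 6 without both CTRL replicate 3 and RBM5 KO replicate 1, and 0 to 4 when single libraries were left out (0 without CTRL replicate 1 and 1 without CTRL replicate 2). It was 5 to 7 in RBM5 OE against CTRL (main value 6) and 6 or 7 in RBM5 OE against RBM5 KO (main value 7). Genes called in RBM5 KO against CTRL numbered 357. They numbered 780 with DESeq2, 615 with no filter on low counts, 891 with all 9 libraries in 1 fit, 83 on the log2(TPM + 1) scale, 84 on the log2(TPM + 0.1) scale, 1959 without both libraries that stood apart, and 27 to 1114 without single libraries. In RBM5 OE against CTRL 5756 genes were called, against 3646 on the log2(TPM + 1) scale and 3626 on the log2(TPM + 0.1) scale, and 4184 to 6161 without single libraries. Without single libraries 4564 to 6125 were called in RBM5 OE against RBM5 KO, where the main value was 5920. The cause of these shifts was not tested.

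Among the members, RBM5 and the other list genes called in the same comparison, only uncalled values of AZU1 and CTSD changed sign. AZU1 in RBM5 OE against CTRL was 0.018 with library totals alone, 0.053 on the log2(TPM + 1) scale, 0.053 on the log2(TPM + 0.1) scale and −0.080 to 0.042 without single libraries (0.042 without CTRL replicate 2). In RBM5 OE against RBM5 KO, AZU1 was −0.021 to 0.123 without single libraries (−0.021 without RBM5 KO replicate 2) and CTSD −0.173 to 0.038 (0.038 without RBM5 KO replicate 3). The calls of LYZ, PRTN3, SRGN, CTSG and LPO in RBM5 OE against CTRL, and of LYZ, MPO, ELANE, PRTN3, LPO and SRGN in RBM5 OE against RBM5 KO, were made in all alternatives run.

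Same-numbered replicates did not deviate together: their deviations from the group means correlated at −0.24 to 0.10, with 0 of 9 pairs over 0.1. Of 18 differently numbered pairs, 4 were over 0.1. The highest was 0.36, between CTRL replicate 3 and RBM5 KO replicate 1, the libraries that stood apart. A block by replicate number does not take up such pairs. With the replicate number as a block, 3 members and 154 genes were called in RBM5 KO against CTRL, 5385 genes in RBM5 OE against CTRL and 5303 in RBM5 OE against RBM5 KO, and the CTSG call between RBM5 OE and RBM5 KO was lost (adjusted p = 0.0598). The block also ended the calls of HSPA5 in RBM5 KO against CTRL (0.101) and, in RBM5 OE against CTRL, of BPI (0.0513), EPX (0.0594), CTSA (0.0603), CTSS (0.0636), SPI1 (0.0696), CST7 (0.0697), SERPINB10 (0.0718) and HP (0.0762). LPO, at 71 to 364 counts a library, is the member that depth limits most.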
